A study of Mus musculus with 23 samples.

Results

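The genes described here are 9 genes of the hepatic lipid droplet and of lipid supply (*Plin2*, *Plin4*, *Plin5*, *Cidea*, *Cidec*, *G0s2*, *Pnpla2*, *Pnpla3* and *Mfsd2a*) together with *Car3*, a cytosolic carbonic anhydrase that is abundant in hepatocytes and adipocytes. The 10 genes were matched by symbol among the 27179 genes of the count table, and 9 of them had a read in at least 1 mouse. They were chosen by their levels and fold changes in these same mice, so that their values are a description and no p-value is given for them. RNA was sequenced from the livers of 15 mice, with 6 Ctrl, 6 ABpIF/+ and 3 ABpIF/F animals. By the study's account the tissue was free of visible tumors, and the mice were all female. All of them carried the Alb-Cre transgene, which expresses Cre recombinase from the albumin promoter and thus in hepatocytes, and were trp53flx/flx. Ctrl mice had wild-type Braf and Icmt flx/+. ABpIF/+ mice carried BrafCA/+, a knock-in allele that Cre turns into BrafV600E, with Icmt flx/+, and ABpIF/F mice carried BrafCA/+ with Icmt flx/flx. The sample labels write Braf of both mutant groups as +/+, while the design text gives BrafCA/+. *Icmt* encodes the methyltransferase that methylates the prenylated carboxyl terminus of RAS and related proteins. The labels give no age. The study obtained only 3 ABpIF/F mice, all of which developed liver tumors, and describes them as animals of different ages. No source used here ties an age to a mouse name, so that age is unknown for each library. The part of age in the spread within groups and in the differences between groups was not tested.

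A lipid droplet is a core of triglyceride and sterol esters under a single layer of phospholipid. Perilipins coat its surface and control the access of lipases, CIDE proteins move lipid from smaller into larger droplets, and the lipase ATGL, the product of *Pnpla2*, starts the breakdown of the stored triglyceride. In the liver the coat protein *Plin2* follows the amount of stored lipid, and several of these genes answer to the fatty acid receptor PPARα and to fasting. The study reports that ABpIF/+ mice lost body weight and showed signs of illness, whereas Ctrl and ABpIF/F mice went on gaining weight. Weight loss and genotype cannot be told apart in comparisons with ABpIF/+, and the part of weight loss in these levels was not tested.

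The library totals over genes ran from 24742910 to 32262649 counts, and levels are given as CPM, the count of a gene relative to its library total after TMM scaling. The scaling factor of BG38, an ABpIF/F mouse, was 1.24, above the 0.846 to 1.09 of the other 14 mice. *Icmt*, the targeted gene, was at 27.8 to 34.7 CPM in Ctrl, 27.8 to 37.4 CPM in ABpIF/+ and 15.2 to 16.6 CPM in ABpIF/F livers. Liver tissue also holds cells that do not express Alb-Cre. Hepatocyte markers were present in every mouse, 10 of 10 with a read in each group, with a summed level of 119990 to 160080 CPM in Ctrl, 205070 to 282310 CPM in ABpIF/+ and 167620 to 263520 CPM in ABpIF/F. A clock gene score (the mean z of *Dbp*, *Tef*, *Hlf*, the *Per* genes, *Nr1d1*, *Nr1d2* and *Ciart* less that of *Bmal1*, *Clock* and *Npas2*) lay between -3.35 and -1.96 in the 3 ABpIF/F mice and at -2.62 in the Ctrl mouse malpa387, but between 0.58 and 1.26 in the other 11 mice. The strain label of 5 Ctrl mice names a B6 line with the floxed Icmt and Trp53 alleles, wild-type Braf and the Albcre transgene. That of BG3 and of all mutant mice names this line crossed again to a B6 line with the Trp53, Braf and Icmt alleles, so that for the other 5 Ctrl mice this cross and the genotype cannot be told apart.

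For 8 of the 10 genes the RefSeq table of promoters (GRCm38.p6) held an entry, with none for *Car3* and *Cidea*. The stretches upstream of the 5 genes in it that passed both thresholds between ABpIF/+ and ABpIF/F are shown here, since these genes moved in opposite directions. Each stretch holds up to 250 bases before the start and leaves out exons, and capitals mark AGGTCA, the core hexamer bound by nuclear receptors such as PPARα, or GGGCGG, the GC box, on either strand.
Plin2, chr4:86670061-86670309, minus strand: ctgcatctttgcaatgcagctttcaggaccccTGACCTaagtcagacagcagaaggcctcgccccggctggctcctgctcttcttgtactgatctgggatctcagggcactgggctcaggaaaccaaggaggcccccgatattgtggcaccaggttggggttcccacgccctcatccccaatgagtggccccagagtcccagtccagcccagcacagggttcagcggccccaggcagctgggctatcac
Plin4, chr17:56109804-56110032, minus strand: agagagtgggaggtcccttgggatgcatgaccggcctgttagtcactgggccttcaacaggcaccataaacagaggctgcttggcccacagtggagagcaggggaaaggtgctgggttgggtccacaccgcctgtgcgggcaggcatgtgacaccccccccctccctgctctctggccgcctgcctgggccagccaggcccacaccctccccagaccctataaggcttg
Plin5, chr17:56117597-56117798, minus strand: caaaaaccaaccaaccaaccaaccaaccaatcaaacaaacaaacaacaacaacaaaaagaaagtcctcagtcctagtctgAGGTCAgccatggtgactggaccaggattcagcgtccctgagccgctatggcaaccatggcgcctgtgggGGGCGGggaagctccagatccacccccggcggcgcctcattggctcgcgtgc
Pnpla2, chr7:141454938-141455187, plus strand: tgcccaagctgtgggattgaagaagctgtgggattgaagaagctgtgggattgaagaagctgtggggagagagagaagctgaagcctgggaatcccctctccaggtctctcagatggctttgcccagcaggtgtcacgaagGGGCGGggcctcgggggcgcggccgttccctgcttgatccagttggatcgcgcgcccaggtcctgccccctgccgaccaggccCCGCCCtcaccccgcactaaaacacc
Mfsd2a, chr4:122961189-122961438, minus strand: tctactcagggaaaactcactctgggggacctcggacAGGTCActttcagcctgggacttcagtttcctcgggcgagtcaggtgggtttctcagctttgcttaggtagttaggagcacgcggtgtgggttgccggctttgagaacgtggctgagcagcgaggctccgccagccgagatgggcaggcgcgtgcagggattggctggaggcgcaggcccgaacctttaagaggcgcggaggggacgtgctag
AGGTCA was found within 250 bases of the start in *Plin2*, at -218, in *Plin5*, at -170, and in *Mfsd2a*, at -213, and 14% of all 32851 promoters of the table held it on 1 of the strands. The GC box was found in *Pnpla2*, *Plin5*, *Pnpla3* and *G0s2*, 4 of the 8 genes, and in 32.7% of all promoters. The window of *Plin4* held neither. The E-box CACGTG was in none of the 8 genes and in 6.02% of all promoters. The cAMP response element TGACGTCA was in *Pnpla3* alone and in 1.55% of all promoters. A match of letters is not evidence of binding.

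*Plin2*, the main droplet coat protein of hepatocytes (chromosome 4, 86648386 to 86670060, minus strand, GRCm38), was lowest in ABpIF/+ livers. Its level in Ctrl mice ran from 234 through a median of 340 to 534 CPM. In ABpIF/+ mice it ran from 43.8 through 87.9 to 142 CPM, and in the 3 ABpIF/F mice it was 177, 234 and 244 CPM. Every ABpIF/+ mouse lay below every other mouse, whereas ABpIF/F and Ctrl mice overlapped. The fold change was 4.16-fold lower in ABpIF/+ than in Ctrl (log2 fold change -2.06 ± 0.25 SE) and 2.52-fold lower than in ABpIF/F (-1.33 ± 0.28). Between ABpIF/F and Ctrl it was -0.72 ± 0.30. The macrophage and stellate cell marker sums given below were also lower in ABpIF/+ than in Ctrl, and their ranges in ABpIF/F and Ctrl overlapped. The macrophage sum hides opposite directions, since 5 of its 10 markers fell and 3 rose in ABpIF/+ vs Ctrl. Their part in the level of *Plin2* was not tested. In bulk tissue, fewer cells of a type and less RNA per cell cannot be told apart.

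*Plin5*, the perilipin of oxidative tissues that links droplets to mitochondria (chromosome 17, 56111601 to 56117596, minus strand), followed another order, with its lowest level in ABpIF/F. The level was 17.0 to 31.6 CPM in Ctrl, with a median of 22.7 CPM, and 23.0 to 54.1 CPM in ABpIF/+, with a median of 27.7 CPM. The ABpIF/F mice had 8.40, 9.83 and 11.7 CPM, all below every mouse of the other groups. The log2 fold change was -1.29 ± 0.27 SE in ABpIF/F vs Ctrl and 1.73 ± 0.28 in ABpIF/+ vs ABpIF/F, a 3.31-fold difference. Ctrl and ABpIF/+ mice overlapped, with a log2 fold change of 0.44 ± 0.21.

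*Plin4*, a perilipin of nascent droplets that is best known from adipocytes, lies next to *Plin5* (chromosome 17, 56100591 to 56109803, minus strand) and shares 17 exon bases with *Hdgfl2* of the opposite strand. Its level was low throughout, at 1.80 to 5.10 CPM in Ctrl and 2.13 to 9.32 CPM in ABpIF/+ livers. The ABpIF/F mice BG90 and BG183 had 0.750 and 0.685 CPM, below all mice of the other groups, and BG38 had 2.19 CPM, within both ranges. The log2 fold change was 2.08 ± 0.50 SE in ABpIF/+ vs ABpIF/F and 0.58 ± 0.37 in ABpIF/+ vs Ctrl, and in ABpIF/F vs Ctrl the level was 2.82-fold lower. Without BG38 the log2 fold change of the last comparison was -2.27 and that of ABpIF/+ vs ABpIF/F was 2.84.

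**Figure D1:**
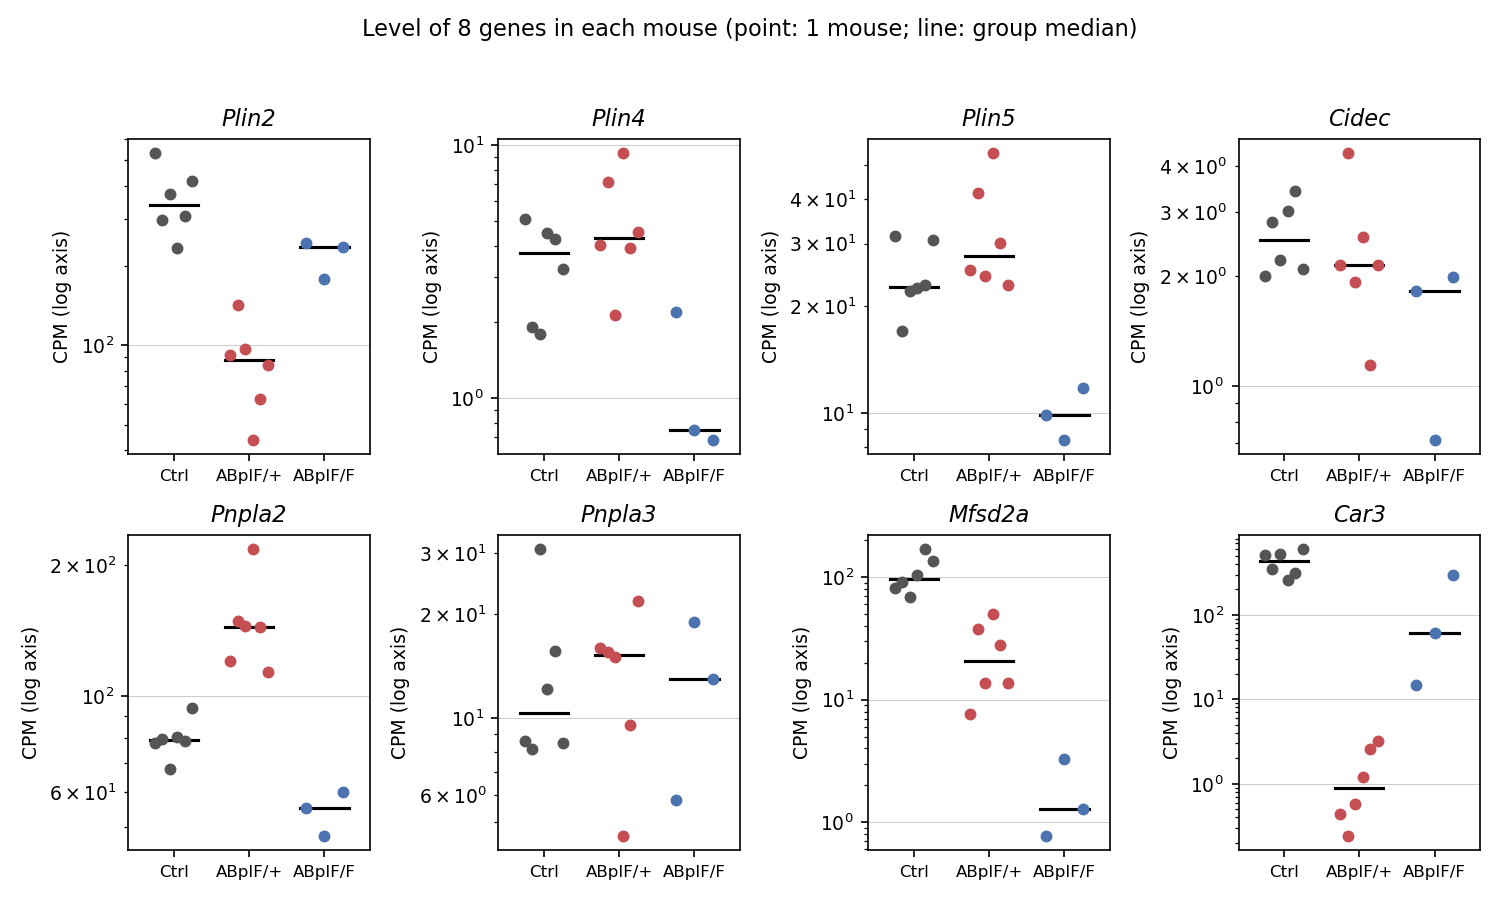
Level of 8 genes in CPM on a log axis in each of 6 Ctrl, 6 ABpIF/+ and 3 ABpIF/F mice (1 point per mouse, line at the group median). *Plin2* and *Car3* are lowest in ABpIF/+, at 43.8 to 142 and 0.242 to 3.20 CPM, whereas *Plin5*, *Pnpla2* and *Mfsd2a* are lowest in ABpIF/F, at 8.40 to 11.7, 47.7 to 60.1 and 0.776 to 3.29 CPM.

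*Cidec* and *Cidea*, members of the CIDE family, were weakly expressed. *Cidec*, which drives droplet fusion and the growth of large droplets (chromosome 6, 113424634 to 113435760, minus strand), had 2.01 to 3.43 CPM in Ctrl, 1.14 to 4.35 CPM in ABpIF/+, and 0.715, 1.83 and 1.99 CPM in ABpIF/F. The ABpIF/F mice lay just below all Ctrl mice, the closest values being 1.99 and 2.01 CPM, and within the range of ABpIF/+. The log2 fold change of *Cidec* was -0.77 ± 0.37 SE in ABpIF/F vs Ctrl, -0.13 ± 0.29 in ABpIF/+ vs Ctrl and 0.65 ± 0.37 in ABpIF/+ vs ABpIF/F. *Cidea*, its relative of brown fat and of fatty liver, lies on chromosome 18. It had 0 to 4 counts in Ctrl, 0 to 13 in ABpIF/+ and 2 to 13 in ABpIF/F mice, and the groups overlapped at this depth.

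*Pnpla2*, which encodes ATGL (chromosome 7, 141455198 to 141460743, plus strand), was highest in ABpIF/+ and lowest in ABpIF/F. The level was 67.8 to 94.1 CPM in Ctrl, with a median of 79.3 CPM, and 113 to 218 CPM in ABpIF/+, with a median of 144 CPM. In ABpIF/F it was 47.7, 55.3 and 60.1 CPM. The 3 groups did not overlap. The log2 fold change was 0.89 ± 0.14 SE in ABpIF/+ vs Ctrl and -0.55 ± 0.17 in ABpIF/F vs Ctrl, both under the 2-fold threshold, and 1.45 ± 0.18 in ABpIF/+ vs ABpIF/F, a 2.72-fold difference. Spread between mice was narrow, with an SD of 10.5% of the mean in Ctrl, 25.1% in ABpIF/+ and 11.5% in ABpIF/F.

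*Pnpla3*, a lipase of the droplet surface and a close relative of *Pnpla2* (chromosome 15, 84167837 to 84187236, plus strand), showed no such order. Its level ran from 8.16 to 30.9 CPM in Ctrl, from 4.56 to 21.9 CPM in ABpIF/+ and from 5.79 to 19.0 CPM in ABpIF/F, and all groups overlapped. The log2 fold changes lay between -0.16 ± 0.54 SE and 0.13 ± 0.54. The transcript Gm49513 shares 6.8% of the exon bases of *Pnpla3* on the same strand, and the counts of *Pnpla3* are uncertain to that extent.

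*G0s2*, the inhibitor of ATGL (chromosome 1, 193272161 to 193273217, minus strand), was listed at 0 counts in all 15 mice. A count of 0 allows up to 3 counts per library, or 0.0831 to 0.123 CPM, for counting error only. No exon of another gene overlaps it in GENCODE M21, and the annotation used for counting is not given in the sources used here. Its level in these livers was therefore not read from the table.

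The ratio of *Plin2* to *Pnpla2*, each per kilobase of exon, set the ABpIF/+ livers apart. It was 2.50 to 5.90 in Ctrl and 3.19 to 3.79 in ABpIF/F mice, but 0.173 to 0.819 in ABpIF/+ mice. The Ctrl and ABpIF/F mice overlapped, although both of its genes were at a lower mean level in ABpIF/F. It combines genes chosen by their values and is a description.

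*Mfsd2a*, a transporter that takes up lysophosphatidylcholine with long unsaturated fatty acids and that fasting induces in liver (chromosome 4, 122946850 to 122961188, minus strand), was lower in both mutant groups and lowest in ABpIF/F. Its level was 69.0 to 170 CPM in Ctrl, with a median of 97.0 CPM, and 7.64 to 50.3 CPM in ABpIF/+, with a median of 20.6 CPM. In ABpIF/F it was 0.776, 1.27 and 3.29 CPM. The 3 groups did not overlap. *Mfsd2a* was 4.32-fold lower in ABpIF/+ than in Ctrl (log2 fold change -2.11 ± 0.47 SE), 61.8-fold lower in ABpIF/F than in Ctrl (-5.95 ± 0.79) and 14.3-fold higher in ABpIF/+ than in ABpIF/F (3.84 ± 0.72). Without BG90, the ABpIF/F mouse with the most *Mfsd2a*, the last 2 values were -6.73 and 4.62.

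*Car3* (chromosome 3, 14863512 to 14872523, plus strand) had the widest range of these genes. Its level in Ctrl mice ran from 258 through a median of 430 to 604 CPM. In ABpIF/+ mice it was between 0.242 and 3.20 CPM, with a median of 0.894 CPM. The ABpIF/F mice BG38, BG90 and BG183 had 15.0, 60.8 and 299.7 CPM. Every ABpIF/+ mouse lay below every ABpIF/F mouse, and of the ABpIF/F mice BG183 alone reached the Ctrl range. *Car3* was 305-fold lower in ABpIF/+ than in Ctrl (log2 fold change -8.25 ± 0.89 SE) and 89.4-fold lower than in ABpIF/F (-6.48 ± 0.87). In ABpIF/F vs Ctrl the log2 fold change was -1.77 ± 0.84. Without BG183 it was -3.50, and that of ABpIF/+ vs ABpIF/F was -4.75. The highest mouse was 20.0-fold above the lowest within ABpIF/F and 13.2-fold within ABpIF/+, against 2.35-fold within Ctrl.

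**Figure D2:**
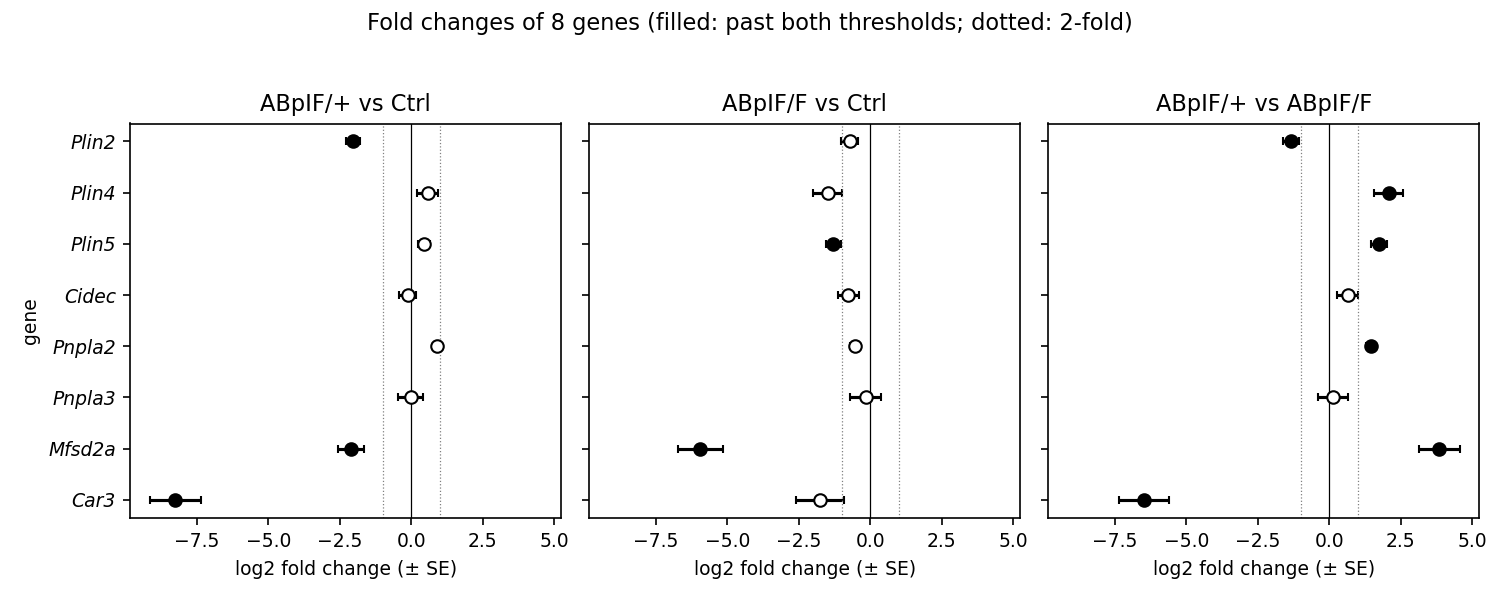
Log2 fold change ± SE of 8 genes in each comparison (filled points passed an adjusted p of 0.01 and a 2-fold change, dotted lines mark 2-fold). *Car3* and *Plin2* are negative in all 3 comparisons, at -8.25, -1.77 and -6.48 and at -2.06, -0.72 and -1.33, while *Mfsd2a* is negative against Ctrl and positive, at 3.84, in ABpIF/+ vs ABpIF/F.

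Calls required at least a 2-fold change and, in edgeR's quasi-likelihood test, a Benjamini-Hochberg adjusted p below 0.01 over all genes. In ABpIF/+ vs Ctrl, 3 of the 10 genes were called lower (*Car3*, *Plin2* and *Mfsd2a*) and 0 higher, while over the 20380 genes with a read 7.13% were called lower and 6.26% higher. In ABpIF/F vs Ctrl, *Plin5* and *Mfsd2a* were called lower and 0 higher, against 3.17% lower and 6.06% higher over all genes. In ABpIF/+ vs ABpIF/F, 4 genes were called higher (*Plin4*, *Plin5*, *Pnpla2* and *Mfsd2a*) and 2 lower (*Car3* and *Plin2*), against 2.35% higher and 7.32% lower over all genes. The groups did not overlap for 4, 4 and 5 of the 9 genes with reads in these comparisons, and for 21.2%, 22.8% and 24.9% of all genes. The median log2 fold change of the 9 genes was -0.02, -0.77 and 0.65, beside 0.00, 0.09 and -0.05 over all genes. The genes were chosen with these values known and nothing is read from the shares. The comparisons share their mice in pairs, so the 3 sets of values are not independent of each other.

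Leaving out single mice moved some of these calls, mostly without moving the fold changes. The call of *Mfsd2a* in ABpIF/+ vs Ctrl was lost without malpa462, BG40, BG88 or BG175, at log2 fold changes of -2.13 to -1.94. That of *Plin5* in ABpIF/F vs Ctrl was lost without BG38 (-1.28) or BG90 (-1.18). In ABpIF/+ vs ABpIF/F, *Plin2* and *Mfsd2a* lost their calls without BG38 (-1.25 and 3.46) or BG183 (-1.28 and 3.66), and *Plin4* without any of malpa462, BG3, BG31, BG55, BG90 or BG183, at 1.79 to 2.08. In the fit of only ABpIF/+ and ABpIF/F mice, *Car3*, *Plin5* and *Pnpla2* kept their calls, while *Plin2*, *Plin4* and *Mfsd2a* lost theirs at -1.35, 2.05 and 3.82.

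Per kilobase of exon, *Car3* was the most abundant of the genes in Ctrl livers, at 149 ± 48.5 CPM per kb (SD, n = 6), followed by *Plin2* at 103 ± 30.2, *Mfsd2a* at 48.1 ± 16.7 and *Pnpla2* at 26.4 ± 2.78. Each of these overlapped the next over the mice. *Plin5*, at 11.7 ± 2.68, and *Pnpla3*, at 9.04 ± 5.68 CPM per kb, overlapped each other and lay below *Pnpla2*, and *Cidec* and *Plin4* lay below 2 CPM per kb. In ABpIF/+ livers *Pnpla2* was on top at 49.1 ± 12.3 CPM per kb, *Plin2* followed at 24.7 ± 9.52 with an overlap, and *Car3*, at 0.480 ± 0.430, was eighth of the 9 genes. In ABpIF/F livers *Plin2*, at 62.2 ± 10.3, and *Car3*, at 43.7 ± 53.4 CPM per kb (SD, n = 3), were on top again and overlapped, and *Mfsd2a*, at 0.790 ± 0.591, had dropped to the level of *Cidec*, at 0.814 ± 0.374.

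Over the 15 mice, *Plin5* went with *Pnpla2* (Pearson r of log2 CPM 0.85, and 0.77 after the group means were removed) and with *Plin4* (0.86 and 0.62). *Car3* went with *Plin2* (0.85), but the value was -0.22 after the group means were removed. *Pnpla2* and *Pnpla3* had an r of -0.23 over all mice and -0.77 within groups. Groups differ in level, the mice share the scaling, and these values are descriptions over 15 points.

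**Figure D3:**
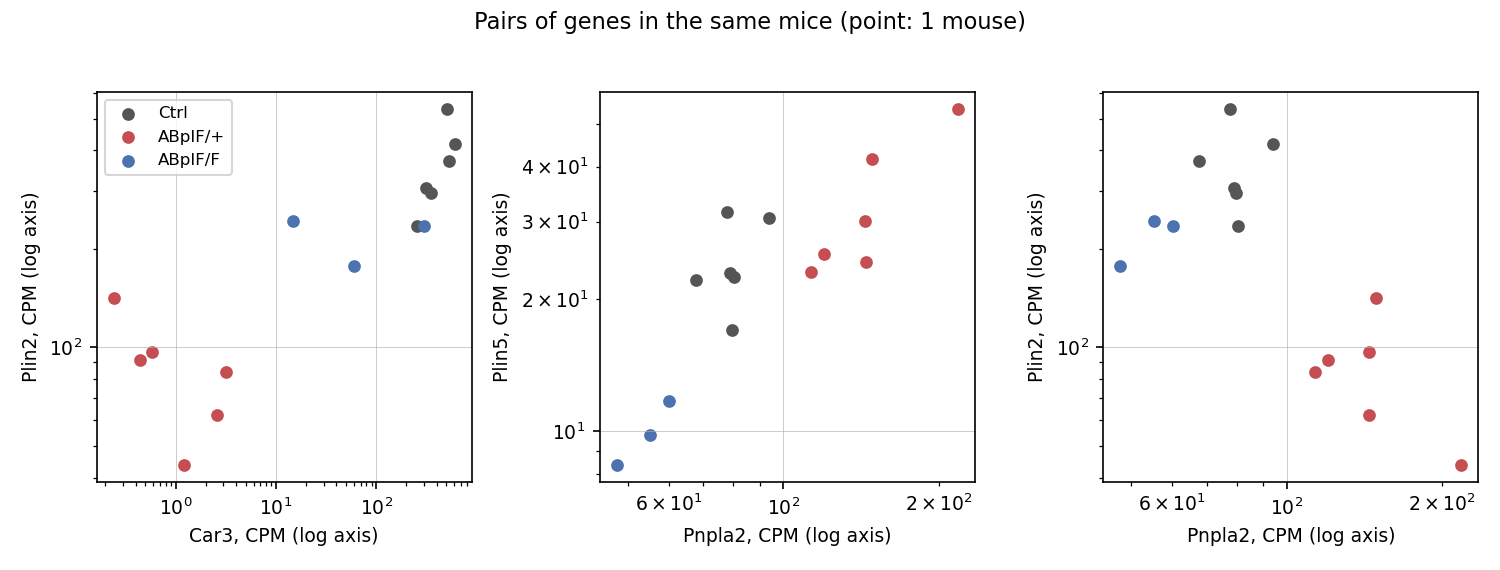
Level of *Car3* and *Plin2*, of *Pnpla2* and *Plin5*, and of *Pnpla2* and *Plin2* in the same mice, in CPM on log axes (1 point per mouse, colours for Ctrl, ABpIF/+ and ABpIF/F). In the first panel the ABpIF/+ mice stand apart with *Car3* at 0.242 to 3.20 CPM, in the second *Plin5* goes with *Pnpla2* (r = 0.85 over 15 mice), and in the third ABpIF/+ mice lie to the lower right.

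Among 9535 other genes whose mean reached 5 CPM, those most like *Car3* over the 15 mice were *Mup3*, a major urinary protein (r = 0.99, and 0.80 within groups), *Sdr9c7*, a dehydrogenase (0.98 and 0.67), and *Lipa*, the lysosomal acid lipase (0.97 and 0.60). The gene most like *Plin2* was *Bdh1*, the ketone body dehydrogenase (0.96), that most like *Plin5* was *Abhd11* (0.94), and that most like *Pnpla2* was *Hook2* (0.97). *Mfsd2a* was most like *Cycs*, the somatic cytochrome c (0.95, and 0.88 within groups). For *Plin4*, *Cidec* and *Pnpla3* these were *Tbc1d8* (0.87), *Lnpk* (0.91) and *Lyrm9* (0.79), and for the sparse counts of *Cidea* it was *Pspc1* (0.84).

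The 73 other lipid genes were taken from 6 lists. Of these, 5 rose and 15 fell in ABpIF/+ vs Ctrl, 4 rose and 20 fell in ABpIF/F vs Ctrl, and 7 were higher and 0 lower in ABpIF/+ vs ABpIF/F by edgeR. Their median log2 fold changes were -0.22, -0.51 and 0.16. Over all 20380 genes with a read, 6.26% were called higher and 7.13% lower in ABpIF/+ vs Ctrl. In ABpIF/F vs Ctrl these shares were 6.06% and 3.17%, and in ABpIF/+ vs ABpIF/F 2.35% and 7.32%. The counts of the lists below stand beside these shares, and no list was tested as a set.

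Of 14 other droplet proteins, 2 rose and 1 fell in ABpIF/+ vs Ctrl, and 2 rose and 2 fell in ABpIF/F vs Ctrl. *Hsd17b13*, a droplet-bound retinol dehydrogenase of hepatocytes, rose from a mean of 253 CPM in Ctrl to 1289 CPM in ABpIF/+ (log2 fold change 2.35 ± 0.16 SE, edgeR adjusted p = 4.44e-10) and to 595 CPM in ABpIF/F (1.23 ± 0.18, adjusted p = 4.15e-05). It was also the 1 gene of the list called in ABpIF/+ vs ABpIF/F (1.12 ± 0.20, edgeR adjusted p = 3.92e-04). With the clock score as a covariate, its value in ABpIF/F vs Ctrl was 0.94 and not called (edgeR adjusted p = 0.0765). Against BG3 alone that value was 0.82, also under 2-fold. *Hilpda*, an inhibitor of ATGL like *G0s2*, rose by 1.73 ± 0.24 and 2.00 ± 0.28 on the log2 scale in ABpIF/+ and ABpIF/F vs Ctrl. *Fitm1*, which helps to form droplets at the endoplasmic reticulum, fell by 1.99 ± 0.43 and 2.65 ± 0.58, and *Fitm2* fell by 1.03 ± 0.18 in ABpIF/F. In ABpIF/F the call of *Fitm1* was lost without BG38 (-2.22) or BG90 (-2.55) and its value was -3.43 without BG183, and the call of *Fitm2* without malpa458, malpa459, BG38 or BG90, at -0.99 to -0.94. *Plin1*, the adipocyte perilipin, was below 0.03 CPM on average in every group, and *Plin3*, the ubiquitous one, was not called in any comparison, with means of 42.2, 53.6 and 61.2 CPM in Ctrl, ABpIF/+ and ABpIF/F.

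Of 9 other lipolysis genes, 1 rose and 2 fell in each of the comparisons with Ctrl and 0 were called in ABpIF/+ vs ABpIF/F by edgeR. *Abhd5*, the coactivator of ATGL, rose in both mutant groups, from a mean of 28.3 CPM by 2.55-fold and 2.72-fold (log2 fold changes 1.35 ± 0.14 and 1.44 ± 0.17 SE, edgeR adjusted p = 2.10e-07 and 1.77e-06). *Mgll*, the monoglyceride lipase of the last step, fell from 203 to 27.5 and 28.1 CPM (-2.88 ± 0.30 and -2.85 ± 0.39, the latter -3.55 without BG183). *Lipa* fell by 1.27 ± 0.11 in ABpIF/+ and *Pnpla8*, a mitochondrial phospholipase, by 1.08 ± 0.13 in ABpIF/F, a call that was lost without BG38 (-0.99). *Lipe*, the hormone-sensitive lipase, was not called, with means of 12.6, 7.17 and 9.79 CPM in Ctrl, ABpIF/+ and ABpIF/F.

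Of 12 genes of triglyceride synthesis, 1 fell in each of the comparisons with Ctrl. *Lpin2*, a phosphatidate phosphatase, fell in ABpIF/F from a mean of 310 to 100.4 CPM (log2 fold change -1.63 ± 0.21 SE, edgeR adjusted p = 8.91e-06). In ABpIF/+ it was *Mogat1*, at a mean of only 0.350 CPM in Ctrl and 0.0239 CPM in ABpIF/+. *Lpin1* and *Lpin2* were higher in ABpIF/+ than in ABpIF/F (3.20 ± 0.52 and 1.89 ± 0.22, edgeR adjusted p = 6.23e-04 and 4.27e-06). *Dgat2*, which completes the triglyceride, was not called, with means of 677, 684 and 381 CPM in Ctrl, ABpIF/+ and ABpIF/F.

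Of 13 genes of lipid uptake and export, 1 rose and 2 fell in ABpIF/+ vs Ctrl, and 1 rose and 4 fell in ABpIF/F vs Ctrl. *Lpl*, the lipoprotein lipase, rose from a mean of 13.1 CPM to 441 and 355 CPM (log2 fold changes 5.07 ± 0.24 and 4.76 ± 0.26 SE, edgeR adjusted p = 8.97e-12 and 1.35e-10). *Fabp1*, the liver fatty acid binding protein, fell from 3434 to 388 and 857 CPM (a log2 fold change of -3.15 ± 0.33 and a 4.01-fold decrease), and its relative *Fabp2* fell by 1.76 ± 0.21 and 1.88 ± 0.27 on the log2 scale. The fatty acid transport proteins *Slc27a2* and *Slc27a5* fell by 1.05 ± 0.19 and 1.03 ± 0.21 in ABpIF/F. There the call of *Fabp1* was lost without BG90 (-1.90), and its value was -2.73 without BG183. The call of *Slc27a2* was lost without BG3, BG38 or BG90 (at the least -0.87) and that of *Slc27a5* without malpa458, BG3 or BG38 (at the least -0.78), each at a change under 2-fold.

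Of 11 lipid regulators, 1 rose and 2 fell in ABpIF/+ vs Ctrl, 3 fell in ABpIF/F vs Ctrl, and 3 were higher in ABpIF/+ than in ABpIF/F. *Ppara*, which encodes PPARα, fell in ABpIF/F from a mean of 337 to 106 CPM (log2 fold change -1.66 ± 0.28 SE, edgeR adjusted p = 2.09e-04). With the clock score as a covariate this value was -0.71 and not called (edgeR adjusted p = 0.223). *Pparg*, the regulator of fat storage, fell by 1.37 ± 0.27 there and was higher in ABpIF/+ than in ABpIF/F by 1.55 ± 0.27. *Ppargc1a*, a coactivator of both, rose in ABpIF/+ vs Ctrl (1.43 ± 0.19) and was higher there than in ABpIF/F (1.36 ± 0.25). *Creb3l3*, a fasting-responsive factor, fell by 1.13 ± 0.17 and 1.07 ± 0.22 in ABpIF/+ and ABpIF/F, and *Mlxipl*, the carbohydrate response factor, by 1.04 ± 0.15 in ABpIF/+. The call of *Creb3l3* in ABpIF/F was lost without BG38 (-0.98) or BG90, just under 2-fold in both, and that of *Mlxipl* without malpa458 (-0.93) or BG88 (-0.97). *Ppara* was higher in ABpIF/+ than in ABpIF/F by 1.06 ± 0.27 (edgeR adjusted p = 0.00811), a call that was lost without any of 10 single mice (malpa454, malpa459, the 6 ABpIF/+ mice, BG38 and BG90), at 0.86 to 1.11.

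Of 14 targets of PPARα and fasting, 7 fell in ABpIF/+ vs Ctrl and 8 in ABpIF/F vs Ctrl, and 0 rose in either by edgeR. Their summed level was 5701 to 7491 CPM in Ctrl, 2494 to 3460 CPM in ABpIF/+ and 1994 to 3072 CPM in ABpIF/F. *Cyp4a10*, a fatty acid hydroxylase, fell from a mean of 506 to 170 CPM in ABpIF/+ and further in ABpIF/F (log2 fold changes -1.57 ± 0.38 and -4.28 ± 0.58 SE) and was the 1 target called in ABpIF/+ vs ABpIF/F (2.71 ± 0.53, edgeR adjusted p = 0.00264, lost without BG38 at 2.42). *Ehhadh*, of peroxisomal fatty acid oxidation, fell by 1.94 ± 0.16 in ABpIF/+ and was also called lower in ABpIF/F (log2 fold change -2.04). *Cyp4a14* fell by 3.83 ± 0.65 in ABpIF/F, and *Acot1*, an acyl-CoA thioesterase, fell in both groups (log2 fold changes -1.67 ± 0.40 and -3.34 ± 0.58). Without BG183, *Cyp4a10* was at -5.47 and *Cyp4a14* at -5.19 in ABpIF/F vs Ctrl, and *Cyp4a10* at 3.90 in ABpIF/+ vs ABpIF/F. The calls of *Cyp4a10* and *Acot1* in ABpIF/+ vs Ctrl, at edgeR adjusted p-values of 0.00701 and 0.00691, were each lost without any of malpa387, malpa454, malpa458, malpa462, BG3, BG30, BG31, BG40, BG88 or BG175, at -1.63 to -1.48 for *Cyp4a10* and from -1.71 for *Acot1*.

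**Figure D4:**
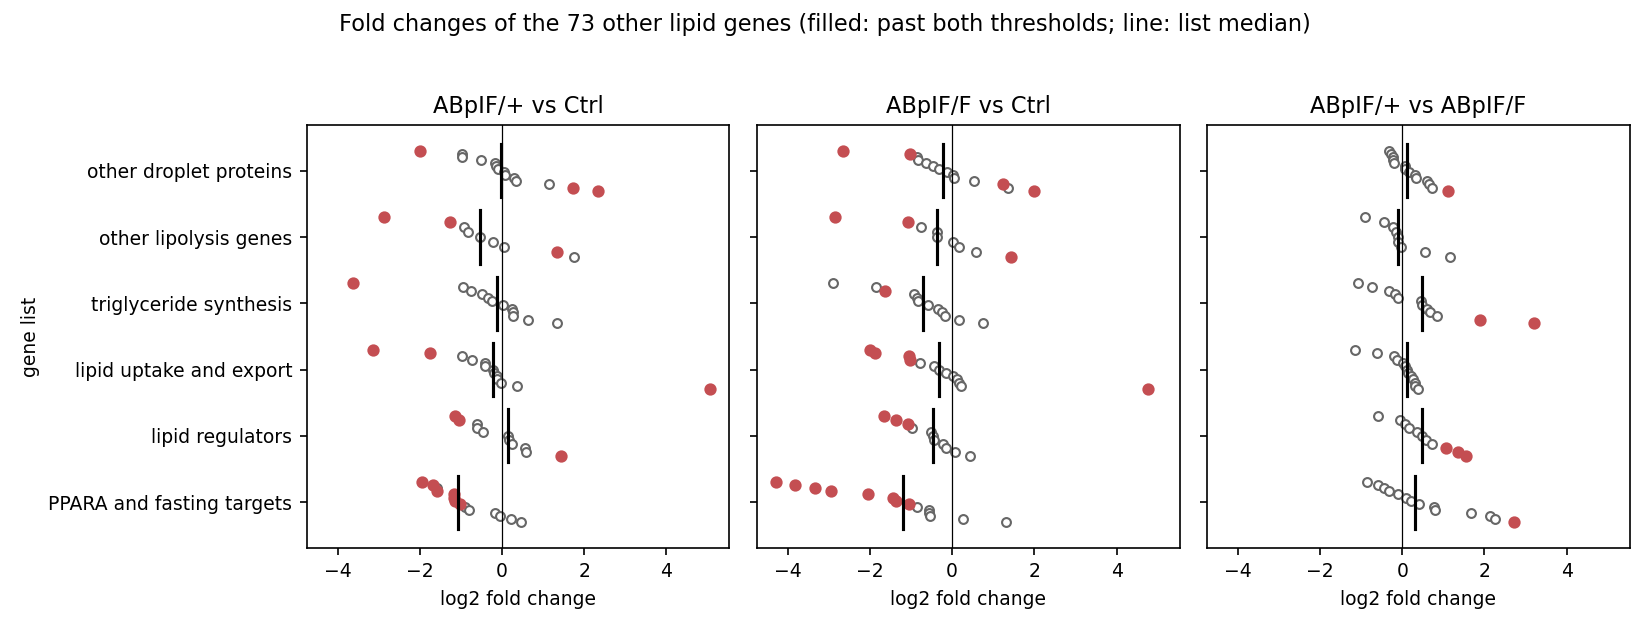
Log2 fold change of the 73 other lipid genes by list in each comparison (1 point per gene, filled where an adjusted p of 0.01 and 2-fold were passed, line at the list median). The targets of PPARα and fasting lie to the left in both comparisons with Ctrl, with medians of -1.08 and -1.21, and *Lpl* is the point at the far right, at 5.07 and 4.76.

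Of 15 other carbonic anhydrases, 14 had a read, and 3 fell in ABpIF/+ vs Ctrl and 1 in ABpIF/F vs Ctrl. *Car5a*, the mitochondrial enzyme of hepatocytes, fell from a mean of 63.4 CPM to 11.2 and 19.4 CPM (log2 fold changes -2.50 ± 0.28 and -1.71 ± 0.35 SE, edgeR adjusted p = 6.46e-06 and 0.00273), and the call in ABpIF/F was lost without BG90 (-1.66) and its value was -2.31 without BG183. With the clock score as a covariate, *Car5a* had an edgeR adjusted p of 0.24 there. *Car1*, which is abundant in red cells, fell by 4.04 ± 0.63 (-4.77 without BG88) and *Car5b* by 1.25 ± 0.29 in ABpIF/+. *Car13* was lower in ABpIF/+ than in ABpIF/F, at means of 0.125 and 0.983 CPM, a call that was lost without BG38 (-2.22). *Car8*, a relative without enzyme activity, was not called, with means of 112, 86.9 and 113 CPM in Ctrl, ABpIF/+ and ABpIF/F.

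*Car3* is one of the genes that are higher around the central vein. Of 12 pericentral hepatocyte genes, 11 fell in ABpIF/+ vs Ctrl and 9 in ABpIF/F vs Ctrl, and their summed level was 9631 to 13501 CPM in Ctrl, 2761 to 5777 CPM in ABpIF/+ and 1093 to 2871 CPM in ABpIF/F. *Cyp1a2*, a drug-metabolizing enzyme, fell by 3.25 ± 0.17 SE on the log2 scale in ABpIF/+ and also fell in ABpIF/F (log2 fold change -2.47). *Cyp7a1*, the rate-limiting enzyme of bile acid synthesis, fell in ABpIF/+ (-2.63, a call lost without BG88 or BG175) and by 5.09 ± 0.87 in ABpIF/F. In ABpIF/F the value of *Cyp7a1* was -6.43 without BG183, and -3.46 and not called with the clock score as a covariate (edgeR adjusted p = 0.0267). The ranges of the sum in ABpIF/+ and ABpIF/F overlapped, whereas every ABpIF/+ mouse had less *Car3* than every ABpIF/F mouse. The part of zonation in the levels of *Car3* was not tested.

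Markers of other cell types that express these genes were read in the same mice. The 10 adipocyte markers summed to 10.8 to 14.2 CPM in Ctrl, 14.7 to 19.4 CPM in ABpIF/+ and 15.0 to 23.9 CPM in ABpIF/F, with *Lep* and *Retn* at 0 in all groups and 1 of the 10 (*Adrb3*) called in any comparison, a call that was lost without malpa454, malpa459, BG3, BG175, BG38 or BG183, at a change under 2-fold. The 10 skeletal muscle markers, a tissue rich in *Car3*, summed to at most 1.89 CPM in any mouse, with *Ckm* and *Pvalb* at 0 in all groups. The 10 macrophage markers summed to 347 to 478 CPM in Ctrl, 196 to 285 CPM in ABpIF/+ and 344 to 812 CPM in ABpIF/F. The 10 stellate cell markers, of cells that store retinoid droplets, summed to 305 to 518 CPM in Ctrl, 93.2 to 183 CPM in ABpIF/+ and 271 to 394 CPM in ABpIF/F. In ABpIF/+ vs Ctrl, 5 macrophage markers fell and 3 rose and 8 stellate cell markers fell. The macrophage markers that rose were *Gpnmb*, *Trem2* and *Cd9*, at log2 fold changes of 3.40, 1.91 and 1.95. The call of *Gpnmb* was lost without any of malpa387, malpa454, malpa458, malpa459, malpa462 or BG30. Both sums were lower in ABpIF/+ than in Ctrl in every mouse, as was *Plin2*, and their part in its level was not tested.

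The clock score separated ABpIF/F from ABpIF/+ completely, so that the phase of the clock and the genotype cannot be told apart in that comparison. The Ctrl mouse malpa387, at a score of -2.62, had 81.4 CPM of *Mfsd2a*, 31.6 CPM of *Plin5*, 77.8 CPM of *Pnpla2*, 5.10 CPM of *Plin4*, 534 CPM of *Plin2* and 510 CPM of *Car3*. Each of these values was above all 3 ABpIF/F mice and, for *Plin2*, *Plin4* and *Plin5*, the highest of Ctrl. With malpa387 as the only Ctrl mouse, a choice made after seeing the data, the log2 fold changes in ABpIF/F vs Ctrl were -5.54 for *Mfsd2a*, -1.66 for *Plin5*, -0.52 for *Pnpla2*, -2.06 for *Plin4*, -1.29 for *Plin2* and -2.03 for *Car3*. With the score as a covariate, *Mfsd2a* alone of the 10 genes was called in ABpIF/F vs Ctrl and 0 of the 10 were called in ABpIF/+ vs ABpIF/F by edgeR. In ABpIF/+ vs ABpIF/F the log2 fold changes under the covariate were -6.68 for *Car3*, 2.68 for *Plin4*, 2.04 for *Plin5*, 1.31 for *Pnpla2* and 3.52 for *Mfsd2a*. That of *Plin2* went from -1.33 to -0.81. The scores of ABpIF/+ and ABpIF/F mice did not overlap, so these values cannot separate the clock from the genotype.

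**Figure D5:**
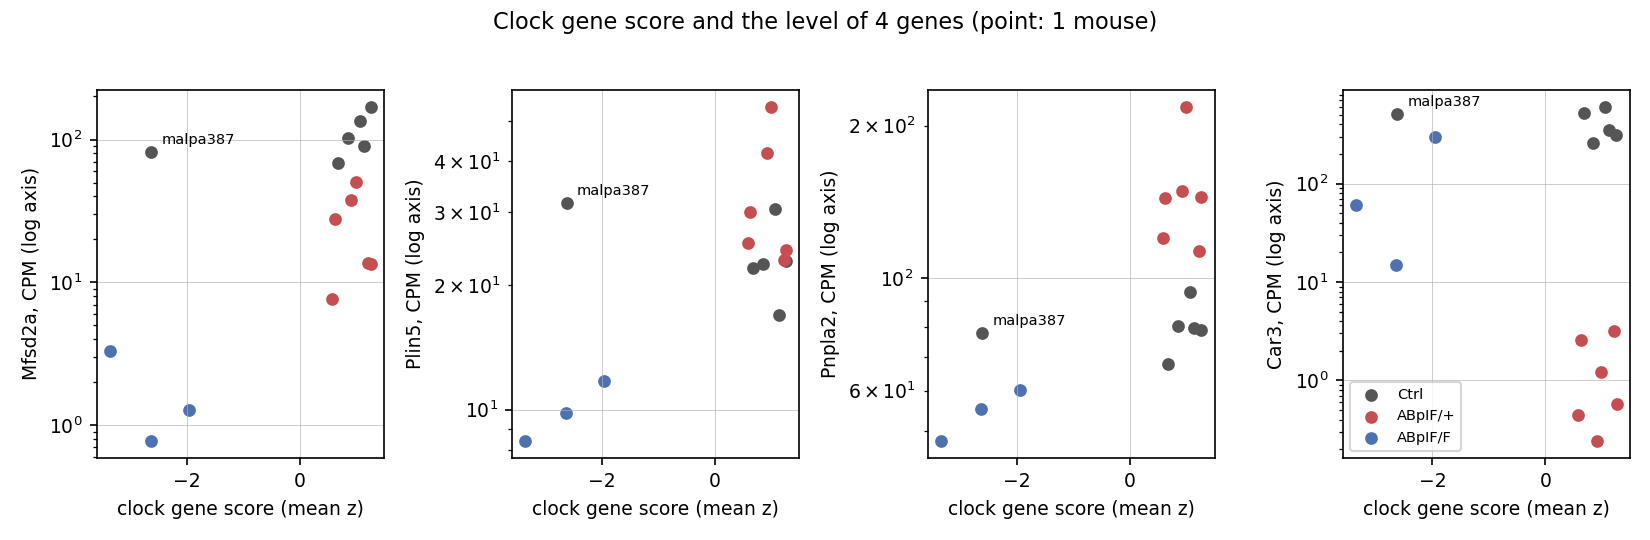
Clock gene score (mean z) and level of *Mfsd2a*, *Plin5*, *Pnpla2* and *Car3* in CPM on a log axis (1 point per mouse, colours for the groups). The ABpIF/F mice lie on the left between -3.35 and -1.96, the Ctrl mouse malpa387 lies among them at -2.62 with 81.4 CPM of *Mfsd2a*, and all other mice are between 0.58 and 1.26.

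Of the Ctrl mice, BG3 alone shares the strain label of the mutant groups. It had 604 CPM of *Car3*, 419 CPM of *Plin2*, 135 CPM of *Mfsd2a*, 94.1 CPM of *Pnpla2* and 30.6 CPM of *Plin5*, the highest Ctrl value for *Car3* and *Pnpla2*. Against BG3 alone, the log2 fold changes of *Car3*, *Plin2* and *Mfsd2a* in ABpIF/+ were -8.75, -2.28 and -2.43, and those of *Plin5*, *Pnpla2* and *Mfsd2a* in ABpIF/F were -1.65, -0.83 and -6.31.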

How the data were processed

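RNA of frozen livers was sequenced from both ends of fragments after a strand-keeping mRNA preparation. The authors aligned the reads to mm10 with HISAT2 (2.21 in the submitters' processing notes) and counted them with featureCounts 2.0.8. The deposited values are raw counts per gene and mouse, and the annotation and the strand setting of the counting are not given in the sources used here. The 23 samples listed name 15 mice, 8 of them named by 2 samples, and the table has 1 column per mouse, which was assigned to its group by the mouse name. A second table of counts was equal in all 10 columns compared, and 5 of its columns were not used. Its columns with the authors' own comparisons (fold changes and p-values) were not used either.

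In R 4.3.3, edgeR 4.0.16 was used with TMM scaling, all 27179 genes, 1 robust quasi-likelihood fit of 3 groups in the form of edgeR 3.36, and Benjamini-Hochberg adjustment. SE is the absolute log2 fold change over the square root of F. Lengths and positions came from GENCODE M21 (GRCm38), which placed 93.2% of the genes. DESeq2 1.42.0 and the other alternatives are given below. The fit was tested on simulated data with known changes. P-values set the difference between groups against the spread between mice, which was estimated jointly over the 3 groups. The genes described and all lists were chosen with earlier results of these data known. Of each list, the text names up to 3 called genes per comparison with the largest change and a mean of at least 1 CPM. *Fitm2*, *Slc27a2*, *Slc27a5*, *Mogat1*, *Car13* and the uncalled *Plin1*, *Plin3*, *Lipe*, *Dgat2* and *Car8* were named after their values were seen.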

Additional observations from a re-analysis of the deposited data

How the results depend on the processing

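Scaling by RLE, the filter on low counts, the quasi-likelihood method of edgeR 4 and a fit without robust estimation kept the counts of calls of the 10 genes and of the 73 other lipid genes within 1.5 times. In ABpIF/+ vs ABpIF/F, DESeq2 called 11 of the other lipid genes, as did an adjusted p under 0.05, and a fit of only the groups compared called 3 of the 10 genes. With BG3 as the only Ctrl mouse, 13 and 7 of the other lipid genes were called in ABpIF/+ and ABpIF/F vs Ctrl, and 0 of the 10 genes in ABpIF/F vs Ctrl by edgeR, where the lone mouse is assumed to vary like the other groups. With malpa387 as the only Ctrl mouse, chosen after seeing the data, these counts were 9, 4 and 0. With the clock score as a covariate, 1 of the 10 genes and 7 of the other lipid genes were called in ABpIF/F vs Ctrl, and 0 and 0 in ABpIF/+ vs ABpIF/F. The log2 fold changes of the last comparison stayed on the same side of 0 and above 2-fold for 5 of the 6 genes called before. The exception was *Plin2* at -0.81, and *Lpin2*, *Pparg* and *Hsd17b13* were at 1.49, 1.84 and 1.46. These values cannot separate the clock from the genotype, since the scores of ABpIF/+ and ABpIF/F mice did not overlap. Without malpa387 in the fit with the score, also added after seeing the data, 0 and 0 were called in ABpIF/F vs Ctrl and in ABpIF/+ vs ABpIF/F. In it the score separates ABpIF/F from all other mice, and the design leaves no mouse to tell them apart. The covariate turned the log2 fold change of *Ciart* in ABpIF/F vs Ctrl to 0.24, malpa387 alone turned it to 1.03, and the covariate turned that of *Ppara* in ABpIF/+ vs ABpIF/F to -0.014. *Ciart* is one of the genes of the score, and malpa387 lies low in that score. The changes of *Ciart* thus follow from how the score was built and test nothing. The cause of the change of *Ppara* was not tested.

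Leaving out each mouse in turn gave 2 to 3, 1 to 2 and 3 to 6 calls among the 10 genes and 16 to 23, 17 to 27 and 6 to 9 among the other lipid genes, in ABpIF/+ vs Ctrl, ABpIF/F vs Ctrl and ABpIF/+ vs ABpIF/F. Of the 765 calls of other lipid genes so repeated, 55 were lost and 0 reversed. The other deposited table was not fitted, since the 10 columns compared were equal and 5 were not used. No paired analysis was possible because the mice share no replicate numbers between groups. *Cidea* and *Mogat1* rest on few counts and *G0s2* on none.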
